A study of Mus musculus with 3 samples.

Results

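Transcripts of 10 genes that hold the cell cycle or mark senescence were followed through single cells of regenerating mouse muscle. These genes were the CDK inhibitors Cdkn1a (p21), Cdkn1b (p27), Cdkn1c (p57), Cdkn2a (p16Ink4a and p19Arf), Cdkn2b (p15) and Cdkn2c (p18), the tumour suppressor Trp53 and its inhibitor Mdm2, the lysosomal β-galactosidase gene Glb1 and the nuclear lamina gene Lmnb1. They were taken by symbol from the 32285 genes listed in the files, all 10 were found under 1 identifier each, and all 10 had UMIs (unique molecular identifiers, each standing for 1 captured RNA molecule) in every library. Tibialis anterior muscles of C57/BL6J mice were injured with BaCl2, a salt that destroys muscle fibres, and cells were collected 4 days later for droplet-based single-cell RNA sequencing. The 3 groups, each 1 library, were young mice given PBS (young PBS), old mice given PBS (old PBS) and old mice given recombinant meteorin-like protein (old rMETRNL), and no young mice given the protein were analysed here. Muscles from triplicate animals were pooled into each library, so no value has replicate error, no test between groups is possible, and every interval below is an exact 95% interval that covers counting error only.

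A cell that is damaged, stressed or instructed to differentiate can leave the cycle. Trp53 encodes the transcription factor p53, which switches on Cdkn1a and Mdm2, and the Mdm2 protein in turn marks p53 for destruction. The Cip/Kip proteins p21, p27 and p57 bind a broad set of cyclin-CDK complexes, whereas the INK4 proteins p15, p16 and p18 bind CDK4 and CDK6 and keep the retinoblastoma protein active. In senescent cells p16 and p21 are commonly raised, lysosomal β-galactosidase activity is high and lamin B1 is low. In muscle, p57 and p21 accompany the exit of myoblasts from the cycle as they differentiate into fibres. Sites through which p53 acts can lie close to a transcription start. The 250 bases before the transcription start of the members were therefore searched on both strands for the p53 half-site, CCAAT and GGGCGG. RefSeq promoters on GRCm38.p6 matched 8 of the 10 genes with 11 start sites, and Cdkn1c and Lmnb1 had no entry. The p53 half-site was found before 1 start each of Cdkn1a, Mdm2 and Trp53, and 7.13% of 32851 RefSeq promoters held one. These 3 windows are shown 5′ to 3′ on the gene's strand, with the half-sites in capitals, because they belong to p53 itself and to its best-known target and inhibitor.
Cdkn1a, chr17:29090729-29090978, plus strand: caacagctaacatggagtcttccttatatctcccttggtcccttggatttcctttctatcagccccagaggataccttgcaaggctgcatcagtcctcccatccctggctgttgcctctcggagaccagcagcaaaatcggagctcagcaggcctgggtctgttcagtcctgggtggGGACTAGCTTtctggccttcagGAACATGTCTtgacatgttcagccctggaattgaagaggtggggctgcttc
Mdm2, chr10:117710759-117711008, minus strand: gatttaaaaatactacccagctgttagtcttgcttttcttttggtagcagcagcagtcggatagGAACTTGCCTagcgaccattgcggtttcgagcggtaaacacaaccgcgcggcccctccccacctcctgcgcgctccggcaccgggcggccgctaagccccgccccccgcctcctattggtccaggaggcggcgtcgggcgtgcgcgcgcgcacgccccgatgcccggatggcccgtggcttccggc
Trp53, chr11:69580109-69580358, plus strand: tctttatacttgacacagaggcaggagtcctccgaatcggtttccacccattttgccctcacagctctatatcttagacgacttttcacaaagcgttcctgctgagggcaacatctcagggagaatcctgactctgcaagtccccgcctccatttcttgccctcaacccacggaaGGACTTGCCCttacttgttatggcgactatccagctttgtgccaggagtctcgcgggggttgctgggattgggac
The half-sites began 73 and 51 bases before the Cdkn1a start shown, 186 before the Mdm2 start and 75 before the Trp53 start. The Mdm2 and Trp53 windows also held CCAAT, 72 and 8 bases before the start, as did 33.8% of promoters. GGGCGG, found in 32.7% of promoters, lay before one start of Cdkn2a, Cdkn2c and Cdkn1b, before the other Cdkn1a start and before Mdm2. A match in these windows is a description of letters and not a measured binding site. Sites outside the windows were not searched, so a window without a match does not mark a gene as no target.

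The 3 INK4 genes read here lie on chromosome 4 (GENCODE M21 on GRCm38). Cdkn2a, chr4:89274471-89294653, and Cdkn2b, chr4:89306299-89311039, are neighbours on the minus strand, and Cdkn2c lies apart from them at chr4:109660876-109667189. Cdkn1a lies at chr17:29090976-29100727, Cdkn1b at chr6:134920401-134925513, Cdkn1c at chr7:143458339-143461050, Trp53 at chr11:69580359-69591873, Mdm2 at chr10:117688875-117710758, Glb1 at chr9:114401076-114474898 and Lmnb1 at chr18:56707813-56753424. Gm44732, an antisense gene, overlaps Cdkn1c.

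The libraries held 12168 (young PBS), 12568 (old PBS) and 14012 (old rMETRNL) barcodes with 179295668 to 228966697 UMIs in all, of which 10285, 9941 and 11363 barcodes passed the filters at medians of 13681 to 15092 UMIs per cell. Between 58 and 80 barcodes were shared by any pair of libraries. Cells were clustered without the members and classes were named from marker genes. Of these classes, 7 held at least 100 cells in every library. They were fibro-adipogenic progenitors (FAP-like; 1695, 1427 and 1777 cells, the connective tissue progenitors of muscle), macrophages and monocytes (6303, 6049 and 6873), endothelial cells (640, 926 and 975), muscle stem cells and myoblasts (MuSC/myoblast-like; 315, 163 and 324), dendritic cells (627, 354 and 640), T and NK cells (209, 188 and 125) and tenocytes (207, 157 and 264). Levels are CPM, the UMIs of a gene per 1000000 UMIs of all genes in that class and library, which take account of depth but not of the makeup of the class, and they were compared between classes and libraries but not between genes. Pdgfra stood at 200 to 285 CPM in the FAP-like class, Adgre1 at 376 to 410 in macrophages, Pecam1 at 1090 to 1152 in endothelial cells and Pax7 at 90.4 to 112 in MuSC/myoblast-like cells. Endothelial cells differed most in depth, with medians of 11320 (young PBS), 3912 (old PBS) and 7282 (old rMETRNL) UMIs. The order of the libraries is always young PBS, old PBS and old rMETRNL.

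**Figure D1:**
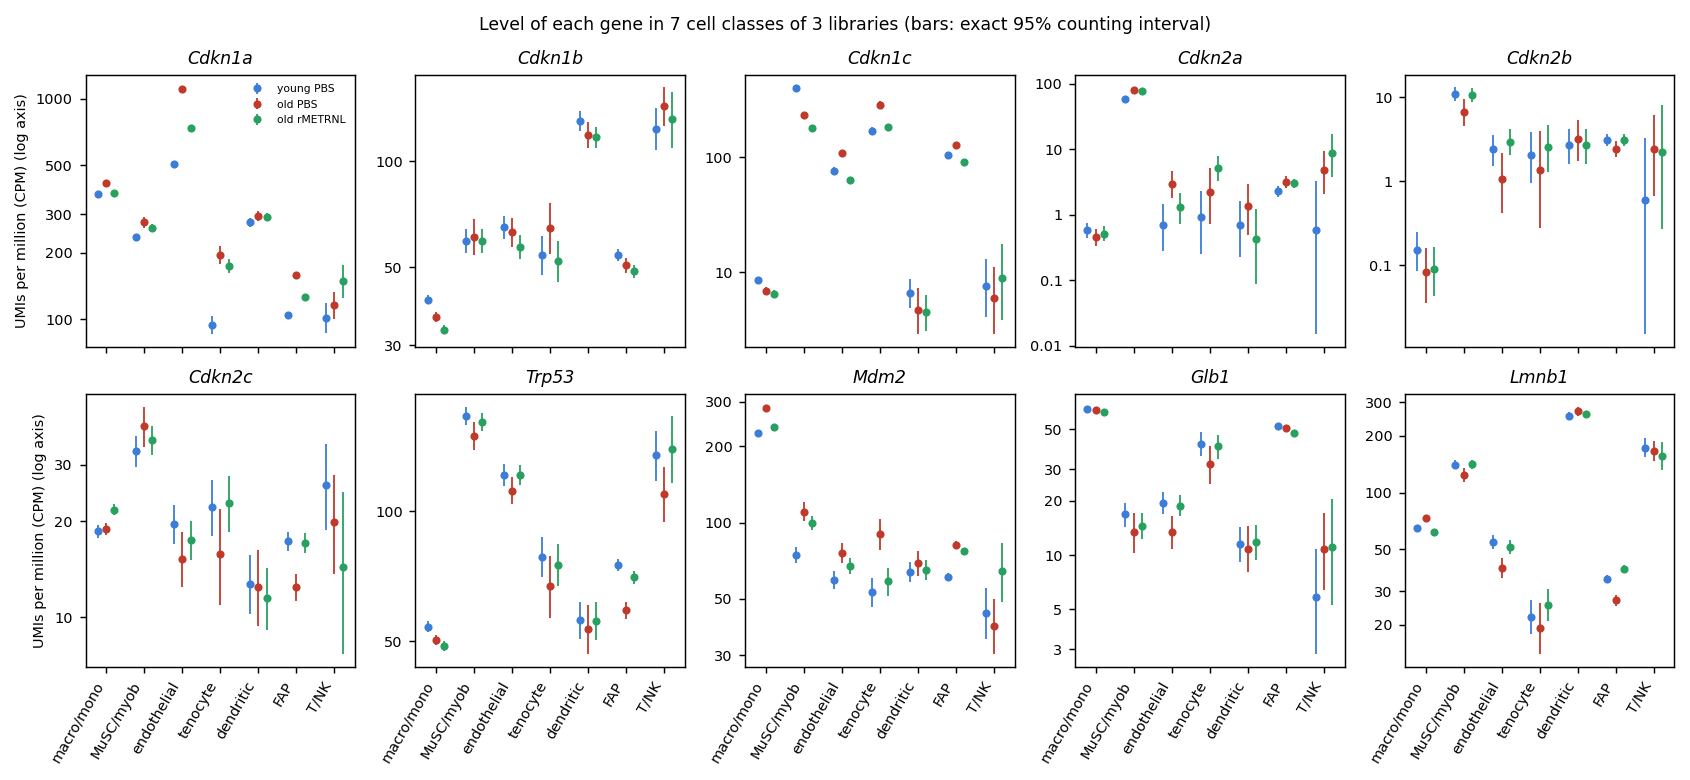
Level of each of the 10 genes in 7 cell classes, in CPM on a log axis that differs between panels; points are the 3 libraries and bars are exact 95% counting intervals. Cdkn2a stands at 58.2 to 81.4 in MuSC/myoblast-like cells and under 10 in the other classes, Mdm2 is highest in macrophages and Lmnb1 in dendritic cells.

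Of the Cip/Kip genes, Cdkn1a was highest in endothelial cells of all 3 libraries, followed by macrophages, when only the 7 larger classes are ranked. In endothelial cells it stood at 506 (492 to 520), 1108 (1083 to 1133) and 735 (720 to 751) CPM. Old PBS was the highest and young PBS the lowest, and the 3 intervals did not overlap. Macrophages, with 369, 417 and 375, carried 64.3% to 69.4% of all Cdkn1a UMIs of the kept cells, a suspension that holds few muscle fibres. Dendritic cells (275, 294 and 291), MuSC/myoblast-like cells (235, 275 and 259), tenocytes (94.3, 196 and 174) and FAP-like cells (105, 159 and 126) also had their highest level in old PBS (in MuSC/myoblast-like cells and tenocytes it did not separate from old rMETRNL beyond counting error, and in dendritic cells from neither other library), whereas T and NK cells had it in old rMETRNL (149 against 102 and 116). Smaller classes were followed by level only. Cdkn1a reached 548, 1212 and 916 in 17, 68 and 44 Schwann/glial-like cells, and 320, 619 and 469 in pericytes and smooth muscle. In myocyte-like cells, the differentiating muscle cells that are fusing into fibres, it stood at 934, 973 and 998 with overlapping intervals.

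Cdkn1b had a flatter profile. T and NK cells (124, 144 and 132 CPM) and dendritic cells (130, 119 and 117) were highest and did not separate from each other in any library. Endothelial cells (64.9, 62.9 and 57.3), MuSC/myoblast-like cells (59.4, 61.1 and 59.4) and FAP-like cells (54.1, 50.7 and 48.8) were lower, and macrophages (40.5, 36.1 and 33.3) were lowest in all 3 libraries.

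Cdkn1c marked the muscle lineage and the connective tissue cells. Myocyte-like cells, of which there were only 83, 25 and 50, held 2937, 2949 and 1610 CPM and 45.9%, 29.2% and 26.9% of all Cdkn1c UMIs. MuSC/myoblast-like cells stood at 394 (382 to 406), 231 (218 to 245) and 180 (172 to 188), with young PBS above both old libraries. Tenocytes (169, 286 and 182), FAP-like cells (104, 127 and 90.4) and endothelial cells (76.2, 108 and 62.7) had their highest level in old PBS instead. Macrophages held 6.54 to 8.57.

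Among the INK4 genes, Cdkn2a was a muscle lineage transcript. MuSC/myoblast-like cells stood at 58.2 (53.6 to 63.1), 81.4 (73.5 to 89.9) and 78.0 (72.7 to 83.6) CPM, and although they were few, they held 60.8%, 58.2% and 64.0% of all Cdkn2a UMIs. Myocyte-like cells followed with 26.7, 29.5 and 40.7, FAP-like cells held 2.27, 3.18 and 3.04, and macrophages held 0.576, 0.458 and 0.518. At a common depth of 2000 UMIs drawn from each cell, which left out 15, 6 and 12 MuSC/myoblast-like cells and 115, 213 and 188 macrophages under that depth, 9.33%, 8.92% and 12.8% of MuSC/myoblast-like cells had a Cdkn2a UMI, against 0.097%, 0.0685% and 0.165% of macrophages. Before thinning the shares were 59.0%, 56.4% and 63.3% at median depths of 25457 to 28414 UMIs per cell, against 0.711% to 0.825% of macrophages at 14068 to 14615. The gene makes 2 coding transcripts whose first exons begin 12461 bases apart and which share the second exon and 234 bases of the last one, so UMIs read near the 3′ end cannot be assigned to p16Ink4a or p19Arf.

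Cdkn2b, a neighbour of Cdkn2a on chromosome 4, was sparse. MuSC/myoblast-like cells held 11.02, 6.69 and 10.6 CPM (112, 32 and 109 UMIs), above the other classes of that size in each library, and FAP-like cells held 3.12, 2.44 and 3.12. Old PBS was the lowest library in both. In FAP-like cells of at least 5000 UMIs the age ratio was 0.787 (0.590 to 1.04) and the treatment ratio 1.29 (0.974 to 1.72). Both intervals took in 1. Cdkn2c, the third INK4 gene, was highest in MuSC/myoblast-like cells (33.1, 39.5 and 35.8) and stood at 17.3, 12.4 and 17.1 in FAP-like cells and at 18.5, 18.9 and 21.7 in macrophages. In FAP-like cells the old PBS value lay under both others and its interval overlapped neither.

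Trp53 itself was highest in MuSC/myoblast-like cells (167, 149 and 161 CPM). Their intervals lay above those of T and NK cells in 2 of the 3 libraries. T and NK cells (135, 110 and 139) and endothelial cells (121, 112 and 121) did not separate from each other in any library, FAP-like cells held 74.99, 59.0 and 70.3, and macrophages held 54.1, 50.3 and 48.7. Mdm2 had another order of classes. Macrophages, which had the lowest mean level of Trp53, had the highest Mdm2 level in every library, 225 (222 to 228), 283 (280 to 286) and 239 (236 to 242), and carried 80.0%, 85.9% and 80.2% of its UMIs. MuSC/myoblast-like cells (74.7, 110 and 99.5), FAP-like cells (61.2, 81.4 and 76.9), endothelial cells (59.3, 76.0 and 67.6) and tenocytes (53.05, 89.8 and 58.6) followed, each with its highest level in old PBS. In MuSC/myoblast-like cells old PBS did not separate from old rMETRNL beyond counting error. Their treatment ratio was 0.902 (0.811 to 1.004) and came to 1.05 as a mean of per-cell values.

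Glb1 was highest in macrophages (64.9, 63.4 and 62.4 CPM) and FAP-like cells (51.9, 50.4 and 47.2), and lower in endothelial cells (19.6, 13.5 and 18.8). The start of Glb1 overlaps Tmppe, a coding gene on the same strand. Lmnb1 was highest in dendritic cells (255, 269 and 259), with T and NK cells (173, 166 and 156) and MuSC/myoblast-like cells (140, 124 and 141) next. FAP-like cells stood at 34.9 (33.3 to 36.7), 27.01 (25.2 to 28.9) and 39.5 (37.7 to 41.4), with old PBS lowest and old rMETRNL highest.

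The age comparison, old PBS over young PBS, asks how an old muscle differs from a young one early in regeneration, and the treatment comparison, old rMETRNL over old PBS, asks what the injected protein changes. Both use the old PBS library, so an extreme value there moves the ratios in opposite directions, and the libraries' values are given for that reason. Genes with at least 50 UMIs over the 3 libraries in a class were read, and a gene more than 1.5-fold higher or lower was counted as past the fold.

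**Figure D2:**
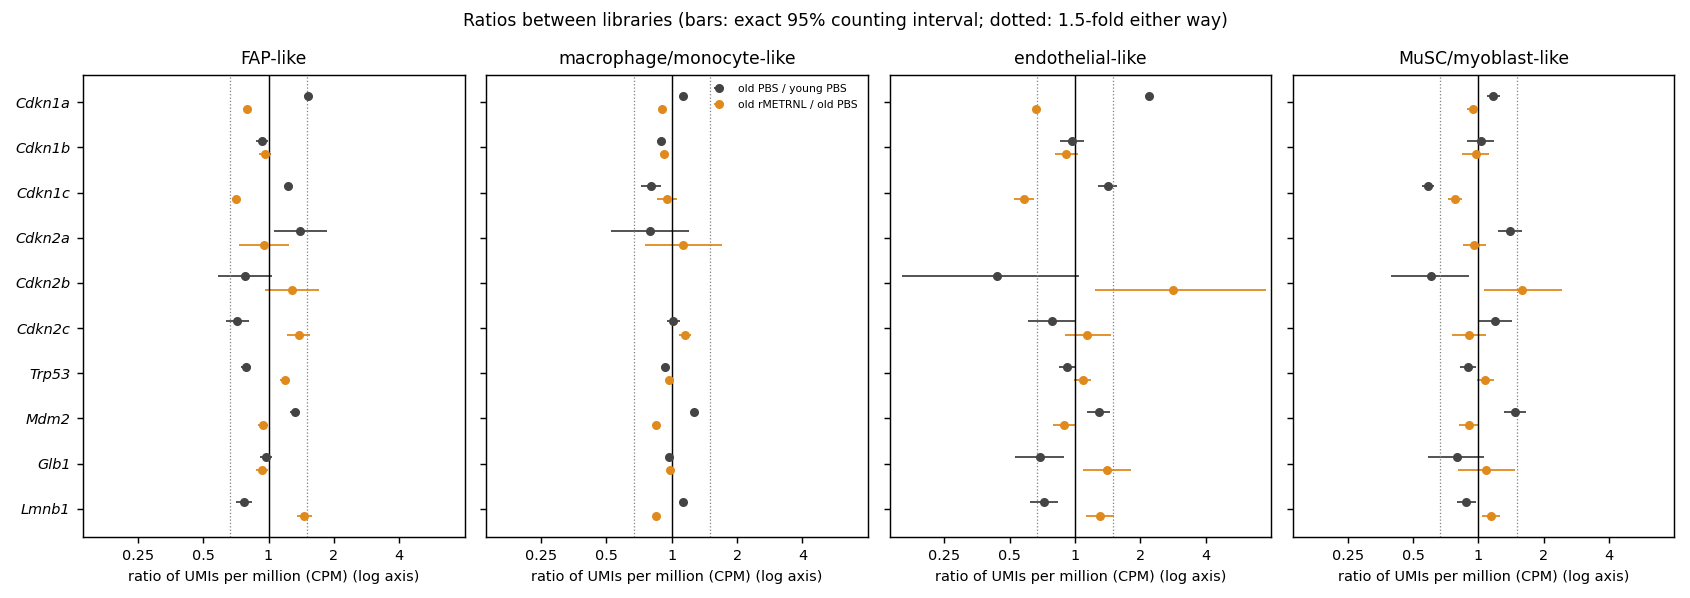
Ratio of CPM between libraries for each gene in 4 classes, on a log axis; grey points are old PBS over young PBS, orange points old rMETRNL over old PBS, bars are exact 95% counting intervals and dotted lines mark 1.5-fold either way. Cdkn1a is 2.19-fold higher in old PBS endothelial cells and 1.52-fold higher in FAP-like cells, and genes with fewer than 50 UMIs in a class are left out.

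In FAP-like cells with age, 1 of the 10 genes was past 1.5-fold, against 14.4% of all 14433 genes read. This was Cdkn1a, 1.52-fold higher in old PBS (1.46 to 1.58). The summed level of 12 mature fibre markers in FAP-like cells was 26.6, 108 and 57.0 CPM and that of 14 myocyte markers 35.2, 83.2 and 48.5, highest in old PBS as well, and their part in the ratios was not tested. Mdm2 was 1.33-fold higher, Cdkn1c 1.23-fold and Cdkn2a 1.40-fold (1.06 to 1.85, from 107 and 103 UMIs). On the other side lay Trp53 (0.79), Lmnb1 (0.77, 0.71 to 0.84) and Cdkn2c (0.72, 0.64 to 0.81). Glb1 (0.97) and Cdkn1b (0.94) were close to 1. The intervals of 8 genes left out 1, 4 on each side. With treatment no gene of the 10 was past 1.5-fold, against 9.82% of all genes. Cdkn1a was at 0.79 of its old PBS level (0.76 to 0.82) and Cdkn1c at 0.71, while Lmnb1 was 1.46-fold higher (1.35 to 1.59), Cdkn2c 1.38-fold (1.22 to 1.56) and Trp53 1.19-fold. Mdm2 (0.95), Cdkn2a (0.95), Cdkn1b (0.96) and Glb1 (0.94) were closest to 1. Within the FAP-like class the cluster led by Sfrp1 and Cxcl14 held 82.6, 136 and 91.1 CPM of Cdkn1a, whereas the cluster led by Pi16 and Wnt2 held 288, 266 and 267. Mdm2 with age was at 1.45 in the first cluster (1.36 to 1.54) and at 0.75 in the second (0.64 to 0.87), and Cdkn1c at 1.07 and 1.21. The Pi16 and Wnt2 cluster held 236, 338 and 398 of the FAP-like cells, so the class values also contain a different mix of clusters in each library, whose part in the ratios was not tested.

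In macrophages none of the 9 genes read was past 1.5-fold, against 13.2% of all 14383 genes with age and 9.64% with treatment. Mdm2 was 1.26-fold higher with age (1.24 to 1.28) and at 0.84 with treatment (0.83 to 0.86). Summed markers of mature fibres (77.3, 187 and 104 CPM), myocytes (87.7, 142 and 89.2) and T and NK cells (124, 220 and 161) in this class were also highest in old PBS, and their part was not tested. Cdkn1a was at 1.13 and 0.90, and Lmnb1 at 1.13 and 0.85. Glb1 (0.98 and 0.98) had intervals that took in 1 in both comparisons. The clusters inside the class differed more. In macrophages led by Cd163 and F13a1, genes known from resident macrophages of muscle, Cdkn1a stood at 487, 773 and 527 CPM (1.59 with age, 0.68 with treatment) and Mdm2 at 384, 510 and 348. In cells led by F10 and Ly6c2, the latter a gene of inflammatory monocytes, Cdkn1a was at 561, 504 and 552 and Mdm2 at 334, 315 and 342. In the cluster led by Dnase1l3 and Ccrl2, Cdkn1a was likewise lowest in old PBS, at 510, 450 and 473. The cluster led by Atp6v0d2 and Htr2b held it at 250, 203 and 223. These clusters held 1563 and 1155 cells of old PBS. Their Mdm2 stood at 283, 280 and 271 and at 195, 195 and 170. With age Cdkn1a was higher in the clusters led by Ifit1bl1 (1.24), Dnase1l3 and Tifab (1.13) and Iqgap3 (1.43). It was at 1.04 (0.987 to 1.09) in that led by Il10. Mdm2 stood at 187, 303 and 201 in a cluster led by the interferon-induced genes Ifit1bl1 and Cmpk2. It was lowest, at 95.9, 152 and 124, in a cluster led by Dnase1l3, Tifab and Cx3cr1 that held 1928, 729 and 1480 cells, so the class value also contains a different mix of clusters in old PBS, and its part in the class ratio was not tested.

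**Figure D3:**
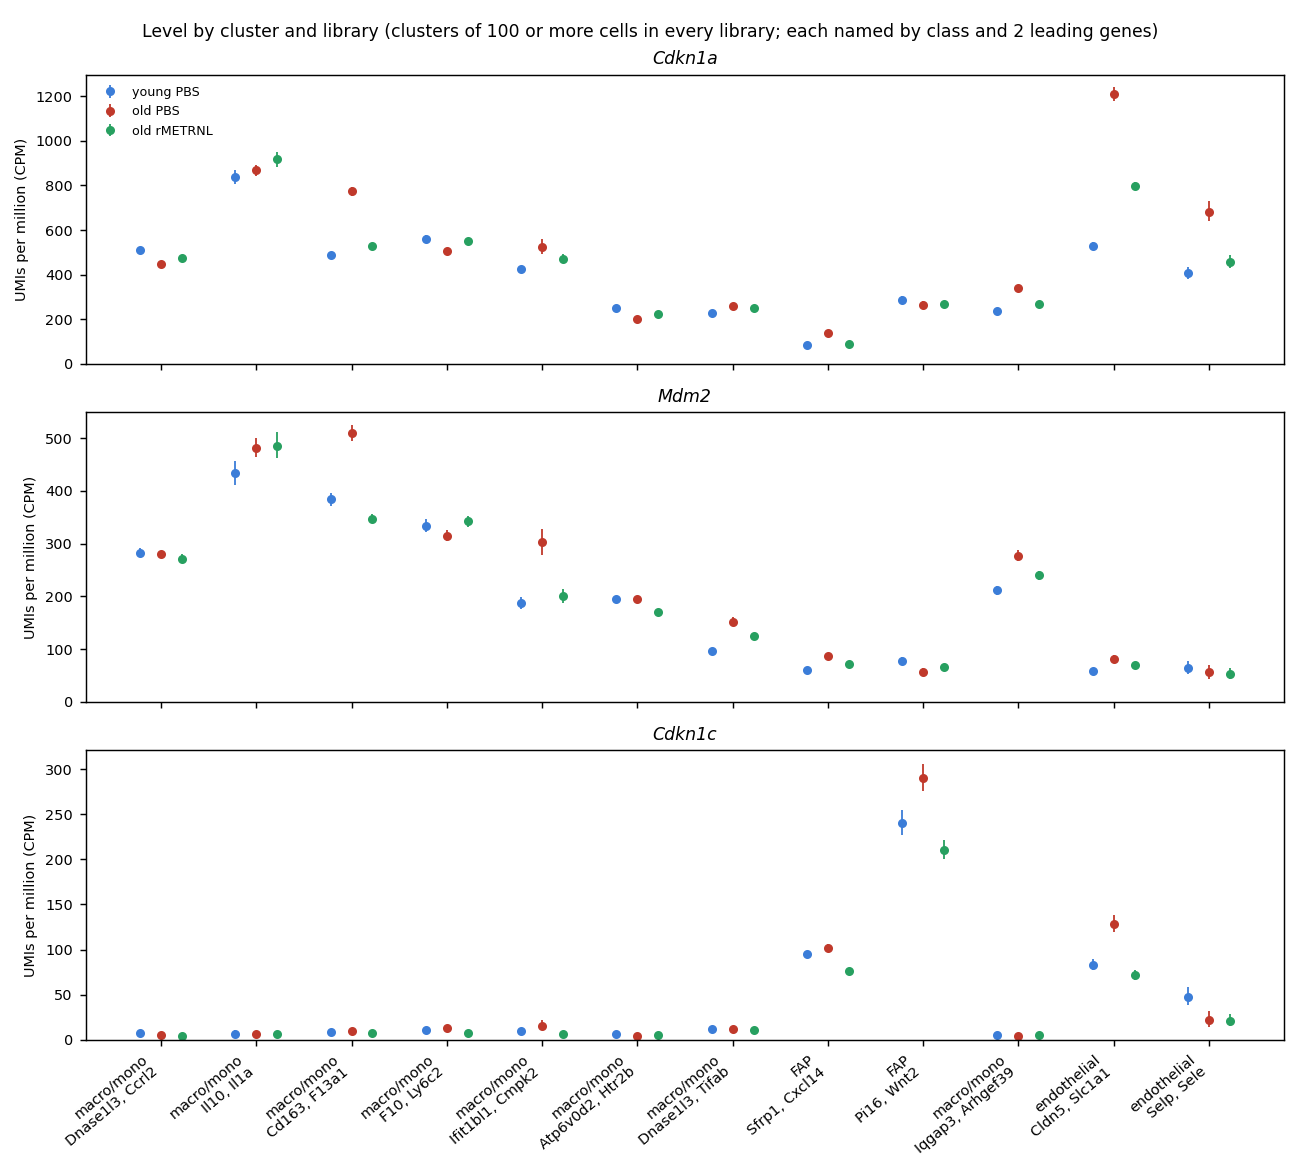
Level of Cdkn1a, Mdm2 and Cdkn1c, in CPM on linear axes, in clusters with at least 100 cells in every library, named by class and leading genes; points are the 3 libraries and bars are exact 95% counting intervals. In the Cd163 and F13a1 cluster Cdkn1a stands at 487, 773 and 527, and in the Ly6c2 and F10 cluster at 561, 504 and 552, and Cdkn1c is highest in the Pi16 and Wnt2 cluster of the FAP-like class.

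In endothelial cells, 2 of the 9 genes read were past 1.5-fold with age, against 18.3% of 11761 genes, and the count ran from 1 to 4 over the alternative settings. Cdkn1a was 2.19-fold higher in old PBS (2.11 to 2.27), and Cdkn2b was at 0.44 on 24 and 7 UMIs, an interval (0.16 to 1.05) that takes in 1. Cdkn1c was 1.41-fold higher (1.28 to 1.57) and Mdm2 1.28-fold, while Glb1 (0.69, 0.53 to 0.89) and Lmnb1 (0.72) were lower. With treatment 3 of 9 were past the fold, against 12.9% of all genes. Cdkn1a was at 0.66 (0.64 to 0.69), just past the threshold, Cdkn1c at 0.58 (0.52 to 0.65), and Cdkn2b was 2.82-fold higher on 7 and 34 UMIs (1.23 to 7.55), a ratio that ran from 1.51 to 5.04 over the alternative settings, as its age ratio did from 0.247 to 0.504. Depth and the markers of other cells moved with these values. The summed level of 12 mature fibre markers in endothelial cells was 31.1, 325 and 75.6 CPM, that of 18 macrophage and monocyte markers was 1362, 2853 and 2649, and the dissociation-response gene Egr1 stood at 602, 1218 and 751. In endothelial cells of at least 5000 UMIs, Cdkn1a came to 1.95 with age and to 0.698 with treatment, the latter no longer past 1.5-fold, whereas Cdkn1c with age came to 1.07 (0.946 to 1.21) and with treatment to 0.632. The part of the other markers in these ratios was not tested. The larger cluster, led by Cldn5, held Cdkn1a at 530, 1209 and 796, and the cluster led by Selp and Sele, adhesion genes of activated endothelium, held it at 406, 683 and 458. Cdkn1c with age went opposite ways in these clusters, at 1.54 in the first (1.39 to 1.72) and 0.46 in the second (0.29 to 0.70), and Mdm2 was at 1.39 and at 0.86 (0.64 to 1.16). After thinning to 2000 UMIs, 50.7%, 75.6% and 64.3% of 602, 716 and 788 endothelial cells had a Cdkn1a UMI, the 38, 210 and 187 cells under that depth being left out. Without thinning, the shares of all cells were 79.4%, 81.5% and 83.2%.

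In MuSC/myoblast-like cells, 2 of the 10 genes were past 1.5-fold with age, against 9.75% of 11202 genes. Both were lower in old PBS, Cdkn1c at 0.59 (0.55 to 0.63) and Cdkn2b at 0.61 (0.40 to 0.91), which came to 0.255, with an interval that took in 1, after thinning to 2000 UMIs. Mdm2 was 1.48-fold higher (1.32 to 1.65), Cdkn2a 1.40-fold (1.23 to 1.59) and Cdkn1a 1.17-fold (1.09 to 1.25). With treatment 1 of 10 was past the fold, against 8.84% of all genes, and this was Cdkn2b at 1.58 (1.06 to 2.43), a count that went to 0 with doublet calls kept and after thinning. Cdkn1c stood at 0.78 (0.72 to 0.84) of old PBS, so its level was furthest from young PBS in old rMETRNL. Cdkn2a (0.96, 0.85 to 1.08) and Cdkn1a (0.94, 0.88 to 1.01) had intervals that took in 1. With cells thinned to 2000 UMIs the age ratio of Cdkn2a came to 0.869 (0.438 to 1.64) and the treatment ratio of Cdkn1c to 1.09 (0.857 to 1.40), so neither direction could be read at that depth. The class held only 163 cells in old PBS, and its summed myocyte markers stood at 1403, 1118 and 1314 CPM. Tenocytes had the age direction of endothelial cells, with Cdkn1a at 2.08 (1.82 to 2.39) and Mdm2 and Cdkn1c both at 1.69. Tenocyte depth also differed, with medians of 20191, 11153 and 14917.5 UMIs, and its part in these ratios was not tested.

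Because these genes act on or follow the cell cycle, cells were also split by a score of 10 proliferation genes that holds none of the members. Cells with at least 2 score UMIs after thinning to 2000 UMIs were called cycling, which cuts a continuous range. Cells under 2000 UMIs were left out, among them 38, 210 and 187 endothelial cells and 1, 20 and 45 FAP-like cells. By this score, of the cells deep enough, 8.21%, 4.90% and 9.47% of FAP-like cells were cycling, 7.58%, 7.20% and 9.44% of macrophages, 12.0%, 6.98% and 10.03% of endothelial cells, and 41.7%, 39.5% and 43.6% of MuSC/myoblast-like cells. In FAP-like cells 126, 79 and 143 cells lay just under the limit with 1 UMI, beside the 139, 69 and 164 called cycling.

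Lmnb1 and Cdkn2c were higher in cycling cells of all 4 classes. Cycling over other FAP-like cells gave 8.28, 11.8 and 8.11 for Lmnb1 and 5.40, 8.02 and 5.10 for Cdkn2c. In macrophages Cdkn2c gave 9.59, 9.81 and 9.52, and of macrophages with a Cdkn2c UMI among the 2000 drawn, 38.9%, 28.2% and 50.2% were cycling, against 6.61%, 6.55% and 8.14% of those without. Cdkn1c had the opposite pattern, with 0.39, 0.64 and 0.27 in FAP-like cells and 0.40, 0.14 and 0.19 in MuSC/myoblast-like cells. Of the 86, 31 and 65 MuSC/myoblast-like cells with a Cdkn1c UMI at that depth, 22.1%, 19.4% and 18.5% were cycling, against 49.5%, 44.4% and 50.2% of those without. Cdkn1a differed by class. It was higher in cycling MuSC/myoblast-like cells (1.61, 1.70 and 1.48) and lower in cycling macrophages (0.68, 0.85 and 0.74). Cycling cells were deeper than the others in FAP-like cells (medians of 43497 against 25624 UMIs in young PBS), and the levels compared are CPM. In FAP-like cells outside the cycling group, the ratios with age and treatment were 0.7996 and 1.32 for Lmnb1, 0.715 and 1.34 for Cdkn2c, 1.16 and 0.774 for Cdkn1c and 1.53 and 0.783 for Cdkn1a (this group still holds the cells with 1 score UMI). In macrophages outside it the treatment ratio of Cdkn2c was 1.03 (0.935 to 1.13) in place of 1.15, and in endothelial cells Cdkn2c came to 0.983 with age and 0.892 with treatment, in place of 0.78 and 1.14, both with intervals that took in 1. The part of the cycling share in the class ratios was not tested.

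**Figure D4:**
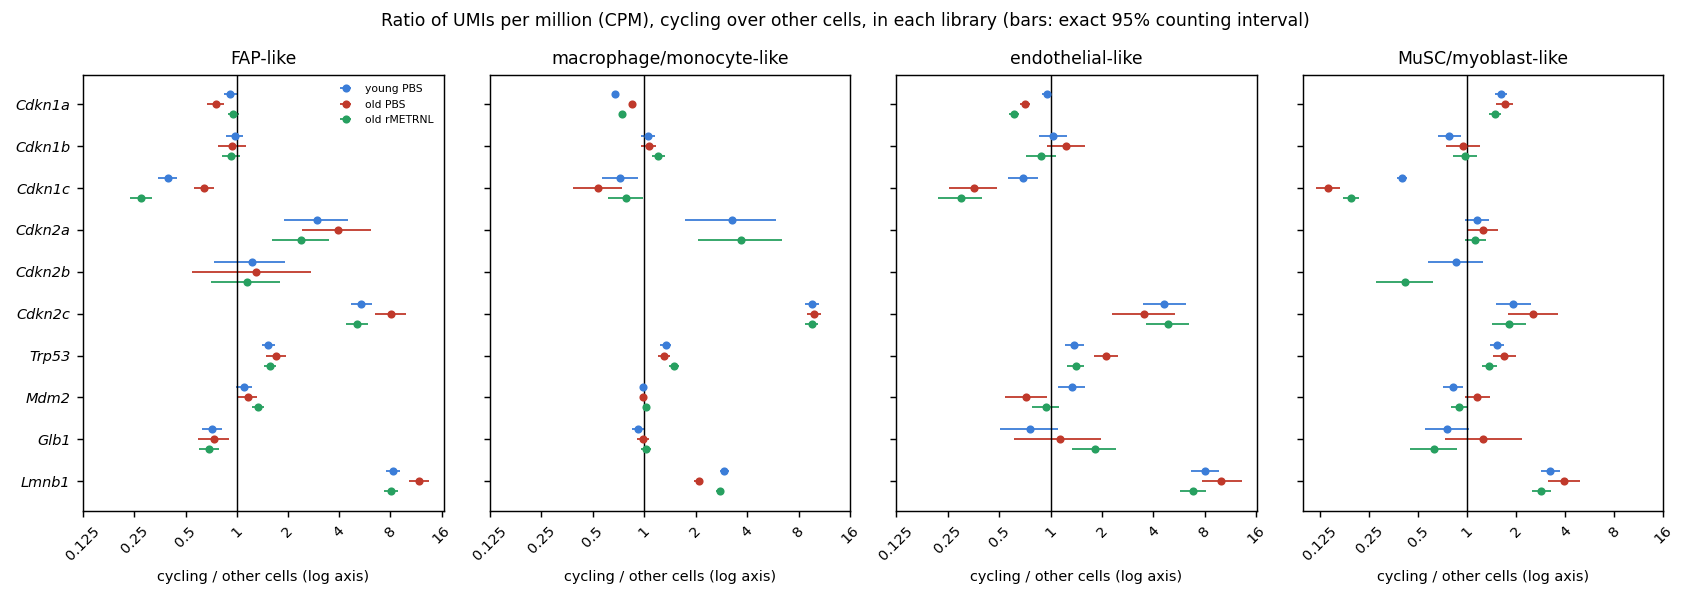
Level of each gene in cycling over other cells of 4 classes, as a ratio on a log axis; points are the 3 libraries and bars are exact 95% counting intervals. Lmnb1 and Cdkn2c lie above 1 in every class, and Cdkn1c lies under 1 in FAP-like and MuSC/myoblast-like cells.

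Other genes of these pathways were read as lists, beside the shares of all genes past 1.5-fold in each direction. In FAP-like cells 8.15% of all genes were higher and 6.26% lower with age, and 4.27% higher and 5.56% lower with treatment. In endothelial cells the shares were 9.95% and 8.36% with age and 6.32% and 6.62% with treatment, in macrophages 6.64% and 6.59% and then 5.85% and 3.79%, and in MuSC/myoblast-like cells 5.23% and 4.52% and then 3.55% and 5.28%. Of 26 cell cycle genes in FAP-like cells, none was past 1.5-fold higher and 9 were lower with age (median log2 ratio -0.47, against -0.02 over all genes), and 23 were higher with treatment (median 0.72, against 0.00). The replication genes Mcm5 (16.3, 8.07 and 16.9 CPM) and Mcm2 (10.3, 5.10 and 10.2) were at their lowest in old PBS. In endothelial cells 12 of the 26 were lower and 1 higher with age (median -0.56) and 10 were higher with treatment (0.54), led by Ube2c and Plk1. In macrophages and MuSC/myoblast-like cells 0 of 26 were past the fold with age, at medians of -0.20 and -0.18. With treatment 1 and 0 were, at medians of 0.42 and 0.26.

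Of 30 p53 targets in FAP-like cells, 2 were higher and 1 lower with age (median -0.02), and 0 were higher and 2 lower with treatment (0.01). With age both shares were smaller than over all genes. Eda2r, a member of the TNF receptor family induced by p53, stood at 6.44, 12.1 and 7.33 CPM. In endothelial cells 4 of 28 were higher and 3 lower with age, with Fas at 1.65 and Ckap2 at 0.48, and 5 were higher and 1 lower with treatment. In MuSC/myoblast-like cells 4 of 29 were higher and 1 lower with age (0.16), and 2 higher and 4 lower with treatment (-0.23), Fas being 1.55-fold higher and then at 0.60. In macrophages 2 of 29 were higher and 3 lower with age, and 3 higher and 0 lower with treatment. The 3 were the cyclin gene Ccnd1 (2.23), Phlda3 (1.70) and Sesn1 (1.61). With age Ccnd1 was at 0.64 and Sesn1 at 0.62.

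Of 50 genes of the senescence-associated secretory list, 14 were higher and 2 lower in FAP-like cells with age (median 0.28), and 1 was higher and 9 lower with treatment (-0.18). Mmp12, a macrophage-type elastase, was 4.83-fold higher with age on 65 and 216 UMIs, and Areg, an EGF receptor ligand, was 3.94-fold higher. In macrophages 7 of 48 were higher and 6 lower with age and 9 higher and 5 lower with treatment, in endothelial cells 9 and 5 of 38 and then 6 and 7, and in MuSC/myoblast-like cells 8 and 5 of 40 and then 7 and 8. Mmp9, a gelatinase, was at 0.046 of young PBS in macrophages of old PBS (21.3 and 0.988 CPM). The summed level of 18 macrophage and monocyte markers in FAP-like cells was 1678, 1984 and 1622, and its part in these ratios was not tested. Of 20 lysosomal hydrolases, the family of Glb1, none was past the fold in FAP-like cells or macrophages in either comparison. In endothelial cells Arsb, a sulfatase, was at 0.63 with age and 1.602 with treatment. None of 18 nuclear lamina and chromatin genes was past it in any of the 4 classes. Among 23 dissociation-response genes, 6 were higher in endothelial cells with age (median 0.37) and 3 lower with treatment (-0.25). In FAP-like cells 1 was higher and 1 lower with age (0.05) and 1 higher with treatment (-0.05), in macrophages 4 were lower with age (-0.09) and 4 higher with treatment (-0.05), and in MuSC/myoblast-like cells 3 were higher and 3 lower with age (-0.02) and 4 higher and 2 lower with treatment (-0.22). In FAP-like cells the higher gene with age was Klf4, a transcription factor, at 1.72 (421 CPM in young PBS and 722 in old PBS). The heat shock gene Hspa1a stood at 1026, 627 and 1218 CPM in FAP-like cells and 1385, 668 and 1397 in macrophages.

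Over the 21 sums of 7 classes in 3 libraries, the genes most like each member by Pearson's r of log2 values were described among 8568 genes. Cdkn1a was most like Scarb1 (0.91), Parvb (0.90) and Ehd4 (0.89), Cdkn1c most like Map1b (0.98), Bod1 and Spats2l, and Cdkn2a most like Ube2v2 (0.93), Cavin4 and Ptbp2. Trp53 was most like Asf1a (0.96) and Orc6, Mdm2 most like Socs6 (0.94), Glb1 most like Mcfd2 (0.96), Rab1a and Ggh, and Lmnb1 most like H2afz (0.97), Cox17 and Emd, which encodes emerin of the nuclear envelope. For Cdkn1b the closest was the ribosomal protein gene Rps27 (0.96), for Cdkn2b Naa35 (0.89) and for Cdkn2c Gnpat (0.92). Among the members, the closest pair was Cdkn2a with Cdkn2b (0.78) and the most opposed was Cdkn1b with Glb1 (-0.85). These 21 sums are not independent, since sums of one class share their cell type and sums of one library share their preparation.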

How the data were processed

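Single-cell suspensions of injured muscle were sequenced as 3 droplet libraries, 1 per group. The authors deposited filtered matrices of UMI counts per gene and cell, made with Cell Ranger (5.0.0 in the file headers, and 5.0.0 and 3.1.0 in the submitters' processing notes) on mm10. From these raw counts, cells with at least 500 genes and at most 10% mitochondrial UMIs were kept. Scrublet scores found no more than 1 doublet per library by their automatic threshold, so the top scores were removed at 0.8% per 1000 barcodes, which called 9.73% to 11.2% of the barcodes scored. Cells were clustered (scanpy 1.11.5, 2000 variable genes, 30 components, resolution 0.8) without the 10 genes, and clusters were named from marker lists by a rule that was revised once after the cluster tables were seen. UMIs were then summed per class and library and given as CPM, with exact Poisson intervals for levels, exact conditional intervals for ratios and Clopper-Pearson intervals for shares. All are 95% intervals for counting error only. Where list medians were taken, 0.5 was added to each count.

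With 1 library per group there was no test. The members and gene lists were chosen with earlier results of these data known. All 10 members are described. Of other genes, the text draws on the 3 of each list with the largest ratio past 1.5-fold in a class and comparison, and on the 3 with the highest Pearson's r to each member over class sums among genes with a mean of at least 10 CPM. Leading genes of clusters are named to identify them. Alternatives covered the cell filters, doublets, clustering resolution, scaling, thinning, the fold, the minimum count and the cycling limit. The set of cells with 5000 or more UMIs was added after the data were seen. In the looser filter, cells under 500 genes had no doublet score. In these 10x libraries a UMI can come from free RNA in the droplet. Gene positions follow GENCODE M21 on GRCm38, and promoter sequences are from RefSeq on GRCm38.p6. The calculations were tested on simulated data.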

Additional observations from a re-analysis of the deposited data

Results flagged for a closer look

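For Cdkn1c the age ratio pointed in opposite directions in different classes. Tenocyte-like cells stood 1.69-fold higher in old PBS than in young PBS (1.52 to 1.89), whereas MuSC/myoblast-like cells stood at 0.587 of young PBS (0.549 to 0.627). The Mdm2 treatment ratio also split, at 1.64 in T/NK-like cells and 0.652 in tenocyte-like cells. It rests on few cells of old PBS and old rMETRNL, 188 and 125 T/NK-like and 157 and 264 tenocyte-like. Each class had 1 library per group, so these differences between classes were not tested.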

How the results depend on the processing

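No paired analysis was possible because each group was 1 library, and for the same reason no library could be left out. Across 10 alternative settings, 627 of 720 ratios of the members lay inside the counting interval of the reported ratio, 71 lay outside it on the same side of 1, and 22 lay outside it on the other side of 1. Of the 22, 13 came from thinning to 2000 UMIs, which leaves few UMIs of each gene. The 13 include 4 treatment ratios of MuSC/myoblast-like cells that were under 1 with intervals taking in 1 and came after thinning to 1.32 (Mdm2), 1.45 (Cdkn1b), 1.51 (Cdkn2a) and 1.29 (Cdkn2c). Where the reported interval left out 1, 8 values lay on the other side. They were the age ratio of Cdkn1b in FAP-like cells (1.01 as a mean of per-cell values and 1.14 after thinning), the treatment ratio of Glb1 there (1.02, per-cell values), the age ratio of Cdkn2c in endothelial cells (1.01 at resolution 1.6), the treatment ratio of Lmnb1 in endothelial cells (0.995, per-cell values), and in MuSC/myoblast-like cells the thinned age ratios of Cdkn2a (0.869) and Lmnb1 (1.04) and the thinned treatment ratio of Cdkn1c (1.09). With cycling cells called from 1 score UMI, Cdkn1c in cycling over other macrophages of old PBS turned to 1.15. The number of members past 1.5-fold changed as follows. In FAP-like cells with age it was 2 with doublet calls kept, 2 after thinning and 0 past 2-fold (1 as reported), and with treatment 1 under the stricter cell filter and 1 after thinning (0 as reported). In endothelial cells with age it was 4 with doublet calls kept, 4 at resolution 1.6, 4 from per-cell values and 1 at a minimum of 200 UMIs, which Cdkn2b did not reach (2 as reported). It was 3 after thinning and 3 in non-cycling cells. With treatment it was 1 after thinning and 1 past 2-fold (3 as reported), and 2 at resolution 1.6, from per-cell values, in non-cycling cells, at a minimum of 200 UMIs and in cells of 5000 or more UMIs. In MuSC/myoblast-like cells it was 0 past 2-fold with age (2 as reported), and with treatment 0 with doublet calls kept, 0 after thinning and 0 past 2-fold (1 as reported). In macrophages it was 0 under each alternative. The cause of these changes was not tested. The stricter cell filter and the restriction to non-cycling cells left fewer than 100 MuSC/myoblast-like cells in a library and gave no value there. The age ratio of Cdkn1a ran from 1.503 to 1.569 in FAP-like cells and from 1.95 to 2.50 in endothelial cells.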
